A study of Mus musculus with 4 samples.

Results

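The liver sets the body's iron supply through the hormone hepcidin, and 10 mouse genes of that system are described here in aged and diabetic liver. They are the hepcidin genes Hamp and Hamp2, the ligand gene Bmp6, the SMAD pathway genes Smad9, Smad7 and Id1, the iron sensor genes Hfe, Tfr2 and Tfrc, and the iron exporter gene Slc40a1. The members were the array probes, control probes aside, whose listed transcript is a RefSeq transcript of one of these genes. This gave 14 probes for 10 of the 23462 gene symbols named on the array. The genes were chosen with their values on these same arrays known, so those values are given as a description and carry no test.

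Livers of male mice gave the RNA, which was dyed with Cy5 and put on Agilent 1-colour arrays, with 4 groups of 1 array each. The control array held RNA of naturally aged mice given no drug, and the diabetic array held RNA of an aged mouse model of type 2 diabetes given no drug. The metformin array came from the same diabetes model treated with metformin, a glucose-lowering biguanide, and the combination array from that model treated with metformin together with astragalus polysaccharide, a polysaccharide preparation of the Astragalus plant. All 4 titles carry 60 d without saying from when the days were counted. The sources used here do not give the strain, the age, the way diabetes was induced, the doses or any pooling of mice. With 1 array per group there is no spread between replicates, so every difference below is between 2 arrays and has no p-value. The diabetic array enters 3 of the 6 comparisons and so does each other array, so the comparisons are not independent of each other.

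A level is the log2 processed signal of a probe minus the 75th percentile of its array, taken over the 51780 probes that kept an unflagged spot on all 4 arrays. A value of 0 is therefore the 75th percentile of the array, and levels of different probes are not set against each other. The error given with a difference is the scanning software's own error of the 2 spots and covers the spot measurement only. Between 29398 and 31980 of 56605 probes were well above background per array, no spot was saturated, and the arrays correlated at 0.95 to 0.965 across probes above background on all 4. Of the 56 member spots, 3 were flagged as outliers and 3 were not well above background. The hepatocyte markers fit the labelled tissue: 9 of 10 had an unflagged spot on each array and all 9 were above background there.

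Hepcidin is a peptide hormone made by hepatocytes that binds the iron exporter ferroportin and leads to its degradation, which holds iron inside intestinal cells, macrophages and hepatocytes. Its transcription is driven mainly by bone morphogenetic proteins (BMPs), which liver sinusoidal endothelial cells release when iron is high and which signal through receptors, the co-receptor hemojuvelin and phosphorylated SMAD proteins. Inflammation drives the same gene through interleukin 6 and the transcription factor STAT3, while erythropoietic demand lowers it. Mice carry a pair of hepcidin genes side by side, and it is Hamp that encodes the iron-regulating hormone.

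The stretch of each hepcidin promoter that holds the BMP-responsive and STAT letters is shown first, because the paralogs share most of it and their probes had similar but not identical patterns. The sequences are from RefSeq on build GRCm38.p6, whose promoter table matched 7 of the 10 members with 10 windows; Id1, Slc40a1 and Smad7 had no match. Capitals mark GGCGCC, the letters of the BMP-responsive element described for hepcidin promoters, with its counterpart in Hamp2, and TTCNNNGAA, a spacing typical of STAT sites. The Hamp stretch is chr7:30944106-30944150 and the Hamp2 stretch chr7:30924255-30924299, both on the minus strand.
Hamp: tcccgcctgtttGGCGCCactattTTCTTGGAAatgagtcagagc
Hamp2: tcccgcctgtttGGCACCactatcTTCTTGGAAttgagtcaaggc
The Hamp stretch runs from 121 to 77 bases before the transcription start. The 250 bases before the start were identical in the paralogs at 227 of 247 aligned bases (91.9%). With positions counted from 1 at the 5′ end of the Hamp window, the substitution inside the GGCGCC element was G145A, and none fell within TTCNNNGAA. Each motif reads the same on both strands and the matches do not overlap. Among the members with a window, GGCGCC was also found in Smad9, from 51 to 46 bases before its start in the window chr3:54755332-54755581 on the plus strand, and in Tfrc, from 89 to 84 bases before its start in the window chr16:32608646-32608895 on the plus strand.
Smad9: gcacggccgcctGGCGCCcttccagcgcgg
Tfrc: acctgccgccttGGCGCCttttctaggcta
Over all 32851 windows of this length, 9.59% held GGCGCC and 7.02% held TTCNNNGAA. A match is a run of letters and not a shown binding site.

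Hamp was low in control liver and high in the 3 diabetic livers. Its level was -1.53 on the control array, 2.78 on the diabetic array, 4.09 on the metformin array and 4.62 on the combination array. The control array stood far below the others, and the combination array was the highest. The processed signals behind these levels were 402, 9311, 28103 and 36655 in the same order, all above background and unflagged.

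Diabetic liver therefore read 4.30 ± 0.19 higher than control for Hamp, a 19.7-fold difference, and only 6 of the 13475 genes measured on both arrays had a larger positive difference. Metformin-treated liver read 1.31 ± 0.16 higher than untreated diabetic liver, which is 2.49-fold. The combination liver read 1.85 ± 0.16 higher than untreated diabetic liver, which is 3.6-fold. Neither treated array lay nearer to the control than the untreated diabetic array did. Against control the combination array was 6.15 ± 0.19 higher, or 70.9-fold, and no gene of the 13845 measured had a larger positive difference. The gap between the treated arrays was small, at 0.53 ± 0.16 for combination minus metformin, and it ran from 0.01 to 0.63 over the processing alternatives.

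Hamp2, whose peptide is not known to regulate iron, was likewise lowest in control liver. Its level was -1.08 on the control array, 0.93 on the diabetic array and 3.46 on the metformin array. The combination spot was flagged as an outlier and is left out; it read 1.87. Diabetic liver was 4.02-fold above control for Hamp2 (2.01 ± 0.18), and metformin-treated liver was 5.81-fold above untreated diabetic liver (2.54 ± 0.16). With the flagged spot kept, the combination array read 0.94 above the diabetic array and combination minus metformin was -1.64, so that the highest array was metformin for Hamp2 and combination for Hamp. Whether each probe also reads the transcript of the other paralog was not tested.

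**Figure D1:**
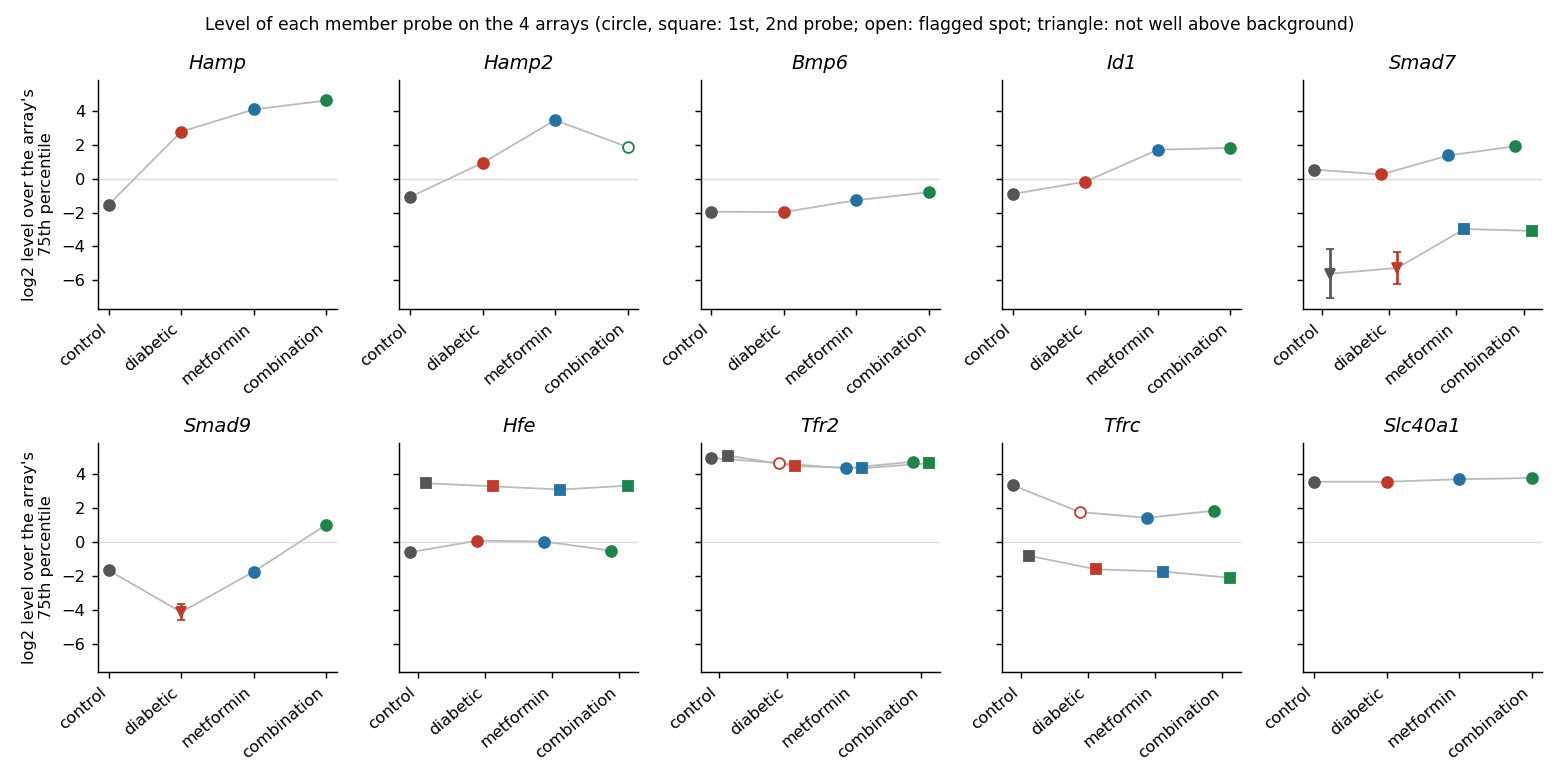
Level of each member probe (log2 over the array's 75th percentile, vertical axis) by array, with a circle for the first probe of a gene, a square for a second one, an open symbol for a flagged spot and a triangle with the software error for a spot not well above background. Hamp climbs from -1.53 on the control array to 4.62 on the combination array, while Slc40a1 stays between 3.56 and 3.78.

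Mouse pancreas also expresses Hamp2, and exocrine pancreas transcripts were present in these RNA samples. The summed level of 14 pancreas markers, in multiples of the array's 75th percentile, was 235 on the control array, 27.7 on the diabetic array, 56.8 on the metformin array and 12.4 on the combination array. On the combination array 10 of the 16 markers with a probe were not well above background, among them Amy2b, Cel, Cpa1 and Prss2. The control array had the highest pancreas sum and the lowest levels of Hamp and Hamp2. From the diabetic to the metformin array the pancreas sum and Hamp2 were both higher, and the part of that tissue in the Hamp2 difference was not tested. Here and below, fewer cells of a type and less RNA per cell cannot be told apart in RNA of whole tissue.

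Bmp6, the ligand that iron loading induces in sinusoidal endothelial cells, did not separate diabetic from control liver. Its level was -1.95 on the control array, -1.97 on the diabetic array, -1.27 on the metformin array and -0.80 on the combination array. The untreated pair read alike, and the treated arrays were higher. The difference from untreated diabetic liver was 0.70 ± 0.21 (1.62-fold) with metformin and 1.17 ± 0.20 (2.25-fold) with the combination, and diabetic minus control was -0.02 ± 0.23. The combination difference was past 2-fold in 9 of 11 processing alternatives and the metformin difference in 1 of 11. Over 9 endothelial markers the summed level was 70.9 on the control array, 48.0 on the diabetic array, 57.0 on the metformin array and 58.5 on the combination array, with every marker that had an unflagged spot above background. Of 10 such markers measured, 7 read above 0 in metformin minus diabetic and 8 in combination minus diabetic. The marker medians were 0.31 and 0.33 there, where those of all genes were -0.11 and 0.04. The part of these cells in the Bmp6 difference was not tested.

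Smad9 encodes SMAD8, a receptor-regulated SMAD and itself a BMP target, and it was the member that differed most between the treated arrays. Its level was -1.67 on the control array, -1.75 on the metformin array and 1.02 on the combination array, and on the diabetic array it was not well above background (measured at -4.14 ± 0.49). The diabetic array was lowest, the control and metformin arrays were alike, and the combination array stood above all. Against the diabetic array's detection limit, Smad9 was at least 3.76-fold higher in control, at least 3.57-fold higher with metformin and at least 24.2-fold higher with the combination. Combination liver was 6.78-fold above metformin liver (2.76 ± 0.18), and 10 of 14363 genes had a larger positive difference in that comparison. This rests on 1 probe with 1 spot per array. Unlike Hamp, Smad9 was lower in diabetic than in control liver.

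Id1, a helix-loop-helix inhibitor that is a direct target of BMP-activated SMADs and tracks pathway activity in liver, was high on the treated arrays. Its level was -0.90 on the control array, -0.18 on the diabetic array, 1.71 on the metformin array and 1.82 on the combination array. The control array was lowest and the treated arrays were close together. Diabetic liver exceeded control by 0.71 ± 0.18 (1.64-fold). Metformin-treated liver was 3.72-fold above untreated diabetic liver (1.90 ± 0.17) and combination liver 4.0-fold above it (2.00 ± 0.17), with combination minus metformin at 0.11 ± 0.16, within the software error.

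Smad7 encodes an inhibitory SMAD that BMP signalling induces and that dampens hepcidin transcription. Its brighter probe read 0.54 on the control array, 0.25 on the diabetic array, 1.37 on the metformin array and 1.92 on the combination array. The treated arrays were again above the untreated ones, and the diabetic array was the lowest. The difference from untreated diabetic liver was 1.12 ± 0.16 (2.17-fold) with metformin and 1.67 ± 0.16 (3.18-fold) with the combination. The dimmer probe was not well above background on the control and diabetic arrays and read -2.97 on the metformin array and -3.08 on the combination array, which puts it at least 1.52-fold and at least 1.41-fold above the diabetic array. The probes gave opposite signs for combination minus metformin, 0.55 ± 0.16 and -0.10 ± 0.30.

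Among the iron sensors, Hfe, an MHC class I-like protein whose loss causes iron overload, differed by less than 2-fold in every comparison. The first Hfe probe read -0.60 on the control array, 0.08 on the diabetic array, 0.03 on the metformin array and -0.51 on the combination array. The second read 3.47, 3.29, 3.10 and 3.33 in that order, and the probes had opposite signs for diabetic minus control. Averaged over the probes, Hfe differed by 0.26 between diabetic and control liver, and this ran from -0.17 to 0.46 over the alternatives.

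Tfr2, the hepatocyte receptor that senses iron-loaded transferrin, was highest in control liver. The probe measured on every array read 5.11 on the control array, 4.49 on the diabetic array, 4.36 on the metformin array and 4.65 on the combination array. On this probe diabetic minus control was -0.62 ± 0.16, metformin minus control -0.75 ± 0.16 and combination minus control -0.46 ± 0.16. The other Tfr2 probe, flagged on the diabetic array, read 4.97, 4.36 and 4.74 on the control, metformin and combination arrays, also highest on control, with combination minus control at -0.23 ± 0.16. Averaged over the probes, metformin minus control ran from -0.83 to -0.05 over the processing alternatives and was -0.11 with the authors' values. All Tfr2 differences were under 2-fold.

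Tfrc, the transferrin receptor for cellular iron uptake, whose transcript is stabilised when cells are short of iron, was lower in the diabetic livers. The brighter Tfrc probe read 3.35 on the control array, 1.43 on the metformin array and 1.85 on the combination array, and its diabetic spot, at 1.77, was flagged. The dimmer probe read -0.81 on the control array, -1.61 on the diabetic array, -1.74 on the metformin array and -2.11 on the combination array. Both probes had control as the highest array. The mean difference from control was -1.43 (2.69-fold lower) for metformin and -1.40 (2.65-fold lower) for the combination. Diabetic minus control, from the dimmer probe, was -0.80 ± 0.19, and -1.17 with the flagged spot kept.

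Tfrc is also high in red cell precursors and dividing cells, so their markers are given beside it. The summed level of 10 erythroid markers was 84.3 on the control array, 53.6 on the diabetic array, 54.8 on the metformin array and 69.4 on the combination array. Epb42 and Gata1 were above background on the control array and not on the others, and Rhag on no array. The proliferation marker sum over 9 genes was 21.8, 15.6, 27.5 and 18.9 in the same order, highest on the metformin array, where Tfrc was not. The part of these cells in the Tfrc differences was not tested.

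Slc40a1, which encodes ferroportin, the iron exporter that hepcidin removes from the cell surface, differed by less than 2-fold in every comparison. Its level was 3.56 on the control array, 3.56 on the diabetic array, 3.71 on the metformin array and 3.78 on the combination array. Its differences from the diabetic array, 0.16 ± 0.16 with metformin and 0.23 ± 0.16 with the combination, were close to the software error. With the authors' values Slc40a1 read 0.17 higher than control on the diabetic array, 0.54 higher on the metformin array and 0.35 higher on the combination array. Kupffer cells carry much of the liver's ferroportin, and the summed level of 10 of their markers was 139 on the control array, 86.7 on the diabetic array, 115 on the metformin array and 75.3 on the combination array, a wider relative spread than that of Slc40a1; their part in its values was not tested. Hepcidin acts on the ferroportin protein, which these arrays do not measure.

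**Figure D2:**
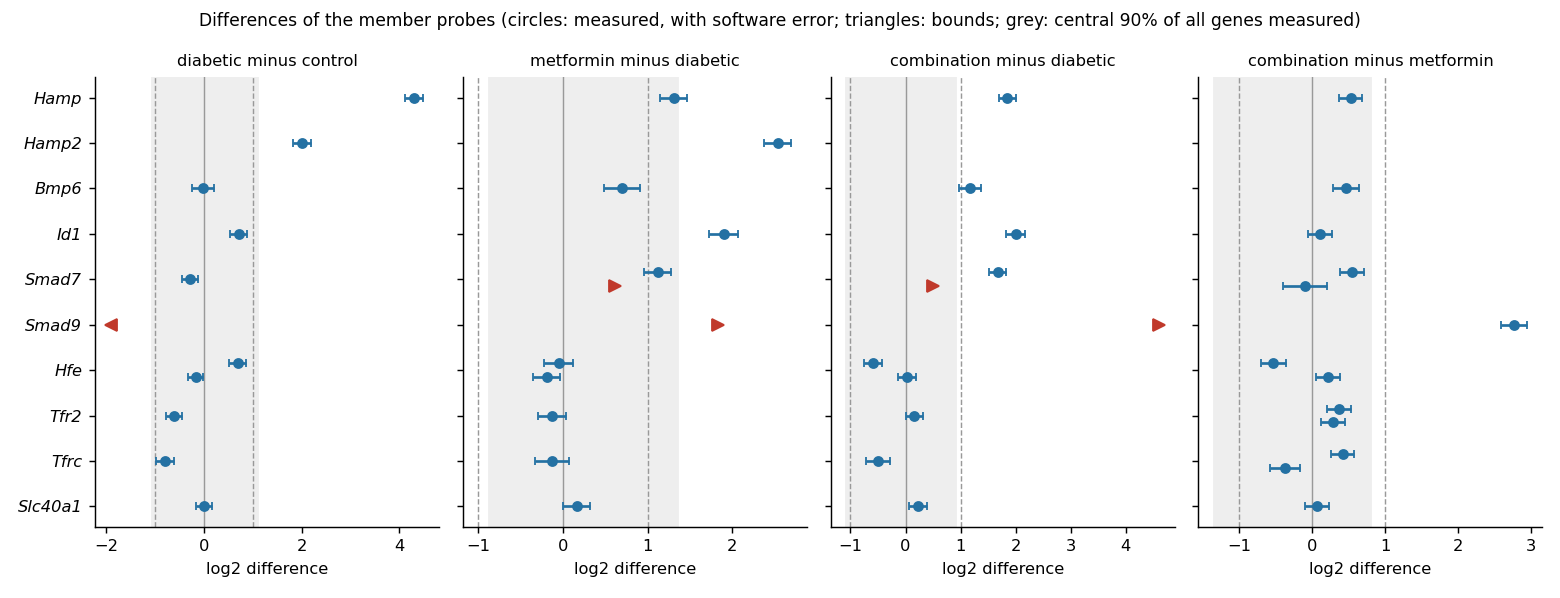
Log2 difference of each member probe (horizontal axis) in 4 comparisons, with circles and bars for measured differences and their software error, triangles for bounds, dashed lines at 2-fold and grey for the central 90% of all genes measured. Hamp stands at 4.30 in diabetic minus control, where Bmp6 and Slc40a1 sit at the zero line, and Smad9 at 2.76 in combination minus metformin.

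Counted together, 2 of 9 measured members were at least 2-fold higher in diabetic than in control liver, Hamp and Hamp2, and none was lower by that much; among all genes measured 11.7% were at least 2-fold apart, with 5.97% higher and 5.69% lower. In metformin minus diabetic, 4 of 9 members were at least 2-fold higher (Hamp, Hamp2, Id1 and Smad7) and none lower, where 12.4% of all genes were apart, 8.82% higher and 3.54% lower. In combination minus diabetic, 4 of 8 members were higher (Hamp, Id1, Smad7 and Bmp6) and none lower, where 9.77% of all genes were apart, 3.98% higher and 5.79% lower. Smad9 was the single one of 9 measured members past 2-fold in combination minus metformin, where 11.3% of all genes were apart, 2.62% higher and 8.72% lower. These counts describe genes that were chosen on such values, so nothing is read from their distance to the background.

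Against control, 3 of 10 members were at least 2-fold higher on the metformin array (Hamp, Hamp2 and Id1) and Tfrc was lower, with 13.8% of all genes apart, 8.09% higher and 5.72% lower. On the combination array 5 of 9 were higher than control (Hamp, Id1, Smad9, Smad7 and Bmp6) and Tfrc was lower, with 10.5% of all genes apart, 4.6% higher and 5.9% lower. The median member difference was 0.70 in metformin minus diabetic, where the median of all genes was -0.11, and 0.70 in combination minus diabetic, where it was 0.04. In combination minus metformin the medians were 0.22 and 0.10.

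The other BMP-SMAD targets and feedback genes, a list of 10, gave a mixed picture led by Atoh8 and Id3. Atoh8, a transcription factor gene induced by BMP signalling in liver, read -0.46 on the control array, 0.82 on the diabetic array, 1.42 on the metformin array and 1.58 on the combination array. Id3, a relative of Id1, read 2.69, 3.14, 3.79 and 3.83 in that order. Both had control as the lowest array and combination as the highest, as Hamp and Id1 had. The order of the treated arrays turns with the scale for Id1, whose combination minus metformin ran from -0.42 to 0.20. A change of scale moves every gene alike, and the treated arrays were also close for Atoh8 and Id3. Which of the treated arrays is the highest is therefore not firm for Atoh8 and Id3 either. Atoh8 was 2.43-fold higher in diabetic than in control liver. The full order from lowest to highest of control, diabetic, metformin and combination was found in 402 genes, 3.16% of those above background on all arrays.

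Over the whole target list, 1 of 6 measured genes was at least 2-fold higher in diabetic minus control and none lower, where 5.97% of all genes were higher, and the list median was 0.23. In metformin minus diabetic none of 8 was higher, where 8.82% of all genes were, and 1 was lower, where 3.54% were. The gene that was lower was Smurf2, at -1.08, a ubiquitin ligase gene that acts on SMADs and receptors. The count of higher genes there ran from 0 to 5 over the processing alternatives and the list median from 0.49 to 1.05, with 0.63 as reported against -0.11 for all genes. Against control, 2 of 6 were higher and 1 lower both on the metformin array and on the combination array. Of all genes 8.09% were higher and 5.72% lower on the metformin array, and 4.6% and 5.9% on the combination array. In metformin minus diabetic Bambi, which encodes a pseudoreceptor that blocks BMP and TGF-beta receptors, was 0.94 higher and Id4 0.70 higher. In combination minus diabetic none of 8 was past 2-fold, where 9.77% of all genes were, and the list median was 0.36. Nog, which encodes the BMP antagonist noggin, went the other way, with levels of -0.49, -1.27, -1.50 and -1.98 on the control array and then the diabetic, metformin and combination arrays.

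The upstream list of 18 BMP ligands, receptors, co-receptors and SMADs stayed mostly within 2-fold. In diabetic minus control 1 of 17 measured genes was higher, Hjv at 1.01, where 5.97% of all genes were. That count ran from 0 to 1 over the processing alternatives. The 1 that was lower was Bmp4 at -1.46, where 5.69% of all genes were. Hjv encodes hemojuvelin, the BMP co-receptor that hepcidin transcription depends on; it read 0.39 on the control array, 1.40 on the diabetic array and 1.32 on the combination array and was flagged on the metformin array. In metformin minus diabetic 2 of 14 were higher, Bmp4 at 1.29 and Gdf2, the gene of the endothelial ligand BMP9, at 1.1. Of all genes 8.82% were higher there. In combination minus diabetic 2 of 17 were higher, Bmp5 at 1.69 and Acvr2a, a type II receptor gene, at 1.33, each from 1 probe. Of all genes 3.98% were higher there. Bmp2, the other endothelial ligand that drives hepcidin, read 2.11, 2.42 and 2.87 on the control, diabetic and combination arrays and was flagged on the metformin array. The list medians were -0.43, 0.25 and 0.42 in these comparisons, where those of all genes were -0.11, -0.11 and 0.04.

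**Figure D3:**
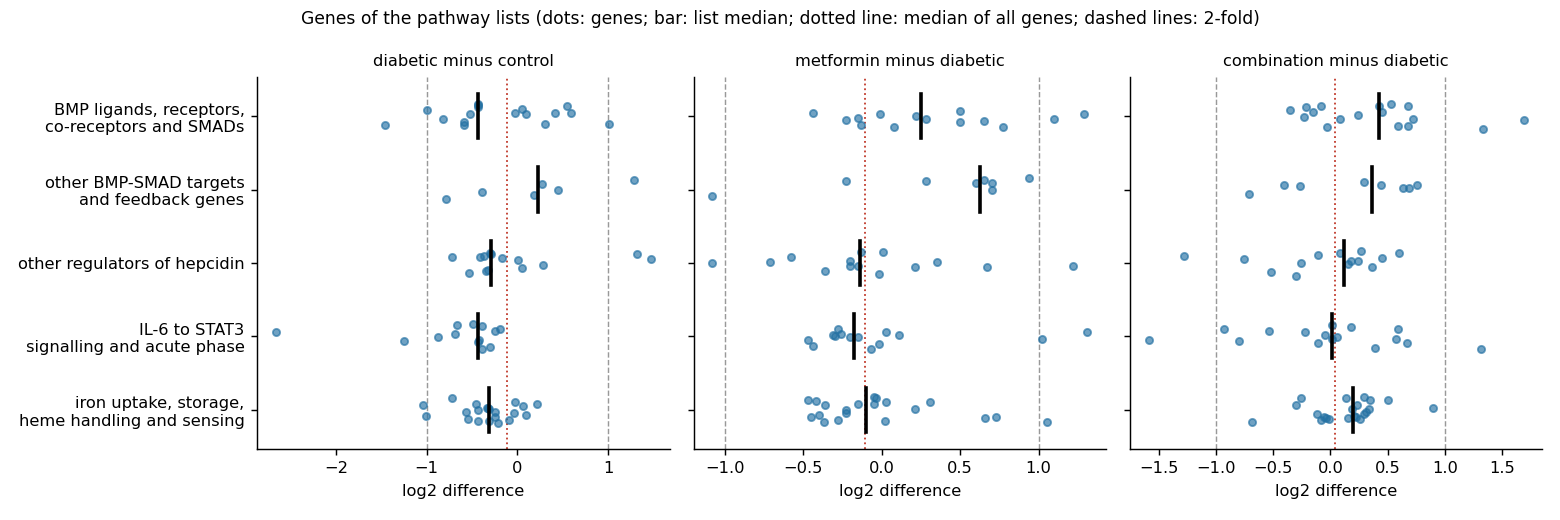
Log2 difference (horizontal axis) of each measured gene of 5 pathway lists in 3 comparisons, with a bar at the list median, a dotted line at the median of all genes and dashed lines at 2-fold. In diabetic minus control every gene of the IL-6 to STAT3 list lies below 0, and the BMP-SMAD target list has its median at 0.23.

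Of 13 genes measured in the list of IL-6 to STAT3 signalling and acute phase genes, none was above 0 in diabetic minus control. At least 2-fold lower were 2 of them, where 5.69% of all genes were, and the median was -0.44, against -0.11 for all genes. The list median ran from -0.46 to -0.13 over the processing alternatives. Other lists lay below 0 in that comparison too: 0 of 9 hepatocyte markers (median -0.40), 0 of 9 endothelial markers (-0.50) and 0 of 10 Kupffer cell markers (-0.69) were above 0. Socs3, a STAT3 target and feedback inhibitor, read 3.54 on the control array, 0.88 on the diabetic array, 1.90 on the metformin array and 1.47 on the combination array. It was 6.33-fold lower in diabetic than in control liver. The part of this pathway in the Hamp differences was not tested. Il6 itself was not well above background on the control, diabetic and combination arrays.

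Against the diabetic array the inflammatory list on the treated arrays had medians near those of all genes. Metformin minus diabetic had 2 of 14 genes higher, Il1b at 1.31 and Socs3 at 1.02, and none lower. Of all genes 8.82% were higher there, and the medians were -0.17 for the list and -0.11 for all genes. Combination minus diabetic had 1 of 16 higher, Il1b at 1.32, and 1 lower, the acute phase gene Saa3 at -1.59. Of all genes 3.98% were higher there and 5.79% lower, and the medians were 0.01 for the list and 0.04 for all genes. Against control the list median was -0.69 with metformin, where that of all genes was -0.19 and that of the hepatocyte markers -0.77. With the combination it was -0.44, where that of all genes was -0.07 and that of the hepatocyte markers -0.21. At least 2-fold lower than control were 2 of 14 genes with metformin and 3 of 14 with the combination. Of all genes 5.72% and 5.9% were.

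Among the other regulators of hepcidin, Gdf15 had the widest difference between diabetic and control liver. Gdf15, a stress-induced member of the TGF-beta family, read 1.59 on the control array, 3.06 on the diabetic array, 3.73 on the metformin array and 2.76 on the combination array. All 3 diabetic livers were above control, and diabetic minus control was 1.47, or 2.77-fold. Erfe, the erythroferrone gene through which red cell precursors lower hepcidin, stood at -0.72 in diabetic minus control and at 1.22 in metformin minus diabetic.

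Outside the members, the 26 genes of iron uptake, storage, heme handling and sensing were counted the same way. In diabetic minus control 2 of 21 measured were at least 2-fold lower and none higher, where 5.69% of all genes were lower. The 2 were Slc39a14, the hepatocyte importer of non-transferrin iron ZIP14, at -1.01 and the metalloreductase gene Steap2 at -1.04. Both lie close to the 2-fold line, and the count of lower genes ran from 0 to 2 over the processing alternatives. The list median was -0.31. In metformin minus control 1 of 22 was higher and 2 were lower, with a median of -0.46 against -0.19 for all genes. The hepatocyte markers had a median of -0.77 there. Of all genes 8.09% were higher there and 5.72% lower. Slc39a14 read 4.59 on the control array, 3.58 on the diabetic array, 3.13 on the metformin array and 3.84 on the combination array. Steap3, a ferrireductase gene of the transferrin cycle, was the 1 of 20 past 2-fold in metformin minus diabetic, at 1.05. Of all genes 12.4% were past 2-fold there. None of 22 was past 2-fold in combination minus diabetic, where 9.77% of all genes were. The ferritin heavy chain gene Fth1 read 5.01, 4.67, 4.30 and 4.81 in the same array order, lowest on the metformin array. The summed level of 8 hepatocyte markers was 327, 262, 201 and 278 in that order, also lowest on the metformin array.

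**Figure D4:**
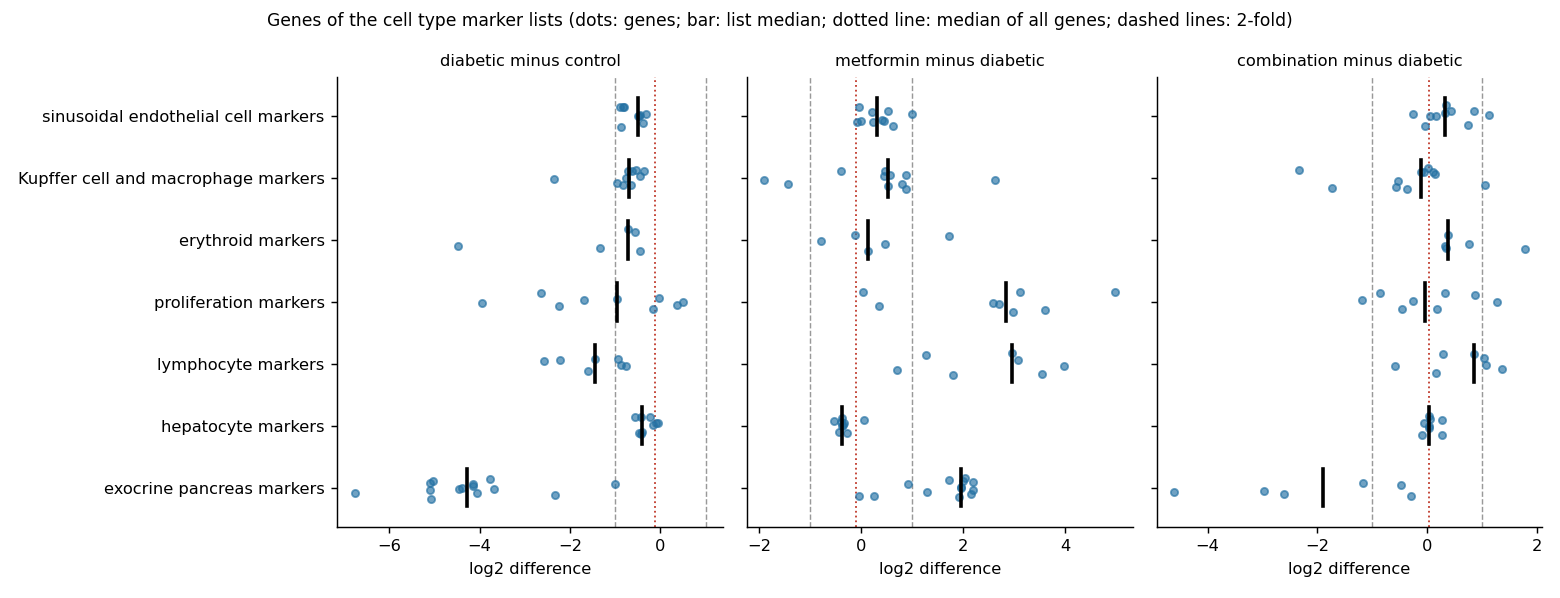
Log2 difference (horizontal axis) of each measured gene of 7 marker lists in 3 comparisons, with a bar at the list median, a dotted line at the median of all genes and dashed lines at 2-fold. The exocrine pancreas list has its median at -4.27 in diabetic minus control, and the proliferation and lymphocyte lists have theirs at 2.83 and 2.96 in metformin minus diabetic.

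Marker transcripts of immune and dividing cells also differed between the arrays. In metformin minus diabetic 6 of 8 proliferation markers and 6 of 7 lymphocyte markers were at least 2-fold higher, where 8.82% of all genes were. Hamp, Hamp2, Id1 and Smad7 were higher there too. In combination minus diabetic the proliferation list had 1 of 8 higher and 1 lower and the lymphocyte list 3 of 7 higher. Of all genes 3.98% were higher there and 5.79% lower, and Hamp, Id1, Smad7 and Bmp6 were among the higher genes. The summed lymphocyte level was 3.85 on the control array, 1.29 on the diabetic array, 8.91 on the metformin array and 2.09 on the combination array. The part of these cells in the members' differences was not tested.

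By the distance between profiles centred on their own mean over the 4 arrays, the genes nearest to Hamp among 12694 compared, members left out, were H19 (distance 1.01 on the log2 scale), Cyp4a14 (1.07), Tuba8 (1.32), Ren2 (1.37) and Gm38832 (1.55). H19, an imprinted noncoding RNA gene, read -3.11 on the control array, 1.57 on the diabetic array, 3.10 on the metformin array and 2.31 on the combination array. Cyp4a14, a fatty acid omega-hydroxylase gene, read -1.23, 3.47, 3.96 and 3.87 in that order. A low control array is what such a choice selects, and none of the 5 was a gene of the iron lists. Hamp's own range over the arrays was 6.15, and it was 1 of 5 genes with a range at least that wide among the 12702 above background on all arrays.

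**Figure D5:**
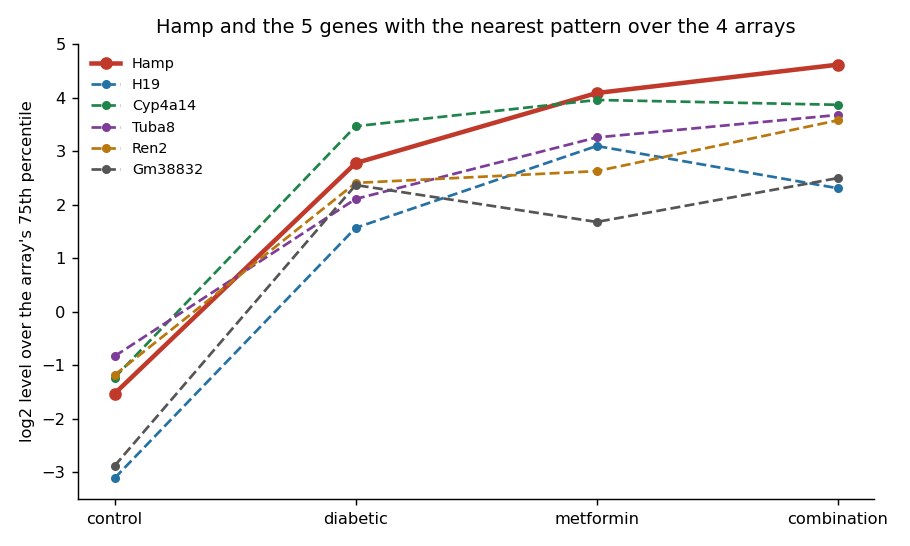
Level (log2 over the array's 75th percentile, vertical axis) of Hamp, solid line, and of the 5 genes with the nearest profile, dashed lines, on the 4 arrays. Each gene is lowest on the control array, where Hamp reads -1.53 and H19 reads -3.11.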

How the data were processed

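Per the labels' protocols, Trizol RNA of each group was labelled with Cy5 and read with Agilent Feature Extraction; the submitters' processing notes name version 10.7 and the file headers 11.5.1.1, with a grid built on mm9. The deposited scanner files hold spot intensities, and the processed intensity used here was background-corrected by that software before deposit, per the file headers. The authors' value table holds log2 values of the same arrays and served as an alternative. Outlier-flagged and control spots were dropped, spots of a probe averaged, and log2 values scaled as the report states. Differences of a gene were averaged over those of its probes well above background on both arrays. A probe below background on 1 array gave a bound against the higher of its own signal and that array's lowest signal well above background. Probes were named through RefSeq transcripts, which named 59.7% of 56605.

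The members and lists were chosen with earlier results of these data known. The text names all 10 members, up to 3 genes with the largest differences per list and comparison, and the 5 genes nearest to Hamp. Further list genes (Bmp2, Il6 and Fth1, and the levels of named genes on other arrays) were added after their values were seen, and some list genes that the rule names are not reported here. All 4 arrays are 1 per group, so no test was run, and their number limits the precision. The software, with its quantile normalization, ran on Python 3.11.15 with pandas 2.3.3, numpy 2.4.6 and Biopython 1.88. The normexp correction came from limma 3.58.1 in R 4.3.3. The steps were tested on simulated data.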

Additional observations from a re-analysis of the deposited data

How the results depend on the processing

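The 6 counts of members at least 2-fold apart were recomputed under 11 alternatives, and 65 of 66 counts were within 1.5 times the reported one. The exception was combination minus metformin with outlier spots kept, where 2 members in place of 1 were past 2-fold, since Hamp2 then read -1.64. Of 594 single differences, 445 moved by less than the software error, 149 moved by at least that much, and 0 reversed after being past 2-fold. Hamp was past 2-fold under all 11 alternatives in each comparison but combination minus metformin, where it was under 2-fold in all 11. Smad7 in metformin minus diabetic kept that size in 10 of 11, Bmp6 in combination minus diabetic in 9 of 11, and Tfrc in metformin minus control in 10 of 11. The planned normexp correction on mean signals could not be run, because the files used here hold median spot signals, on which it was run; this, centring on the median of all genes, and a spike-in scale were chosen after seeing the data.

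The scale between arrays mattered most. On the spike-in scale the median of all genes was 0.44 in metformin minus control in place of -0.19, and 93.3% in place of 58.6% of the genes past 2-fold were higher; scaling on the median of the common probes gave 42.0%. In metformin minus diabetic the spike-in scale gave 92.7% higher in place of 71.4%, and in combination minus metformin 3.28% in place of 23.1%. In combination minus diabetic, taking the percentile over each array's own unflagged probes gave 19.3% in place of 40.8%. In diabetic minus control the spike-in scale gave 69.7% in place of 51.2%, and in combination minus control 55.2% in place of 43.8%, where the percentile over each array's own unflagged probes gave 32.1%. Hamp, Hamp2, Id1 and Smad7 were above 0 in metformin minus diabetic on every scale. Differences under 2-fold, such as those of Hfe, Tfr2 and Tfrc in metformin minus diabetic, changed sign between scales. No paired analysis was possible because each group has 1 array, so the groups share only 1 replicate number.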
